A study of Mus musculus with 18 samples.

Results

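Immediate early genes are a set of genes that mouse cells transcribe within minutes of a growth factor, cytokine or stress signal, without first making new protein. The 10 members described here are Fos, Fosb, Jun, Junb, Atf3, Egr1, Egr3, Nr4a1, Ier2 and Dusp1. They were taken by symbol from 55536 annotated gene IDs and were selected on their CPM over the 6 groups below, already known from these data. Their levels and fold changes are therefore descriptions, given without p-values. The libraries are bulk poly(A) RNA sequencing of bone marrow cells from BALB/c WT mice and from mice labelled Cysltr1-/-, which lack by label the type 1 receptor for cysteinyl leukotrienes. All cells grew for 4 days in RPMI 1640 medium with serum and GM-CSF at 40 ng/mL, a factor that drives marrow towards granulocytes and macrophages. The cultures received GM-CSF alone, GM-CSF with IL-6 at 40 ng/mL, or GM-CSF with 50% (v/v) medium conditioned for 24 h by EMT6 cells, a mouse mammary carcinoma line. Each of the 6 groups held 3 samples and each sample pooled the marrow of 3 mice. The labels do not say whether the pools shared animals, so the errors measure only the spread between these samples.

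The genes fall into a signalling circuit. Growth factor and stress receptors activate the MAP kinases, which phosphorylate ternary complex factors and CREB already bound at the promoters, and transcription starts at once. The FOS and JUN proteins pair to form the AP-1 factor, ATF3 pairs with JUN proteins, and EGR1, EGR3 and NR4A1 bind DNA at sites of their own. DUSP1 removes phosphate from the MAP kinases and so closes the loop. In myeloid cells the circuit is known for macrophage activation and for differentiation from marrow progenitors. Transcripts of this kind also turn over rapidly, and handling of cells during harvest is known to induce them.

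Libraries held 9583728 to 31989342 gene counts. Levels are given in CPM (counts brought to a common library total) scaled by TMM, a factor per library that assumes most genes' ratios to be near 1. Cell type marker levels are the exception and are CPM by library size alone. The share of reads counted to no annotated feature was 14.2%, 14.5% and 36.2% on average in WT cultures with GM-CSF, IL-6 and EMT6 medium, and 17.6%, 19.5% and 50.2% in the labelled Cysltr1-deficient ones. Reads in introns may be among them, so this share is not one of reads outside genes. The labels were not matched by loss of the Cysltr1 transcript, which averaged 77.1 CPM ± 1.74 (SD, n = 3) in labelled-deficient cultures under GM-CSF alone against 60.5 CPM ± 2.62 in WT, and which exons the allele removes was not checked here. The marker levels that follow are without TMM, whose factors ran from 0.818 in a WT IL-6 library to 1.41 in a labelled-deficient EMT6 library. They are therefore not on the scale of the members' levels. All 10 myeloid markers were present in every group, with summed levels from 5012 to 9139 CPM. Summed levels of 10 neutrophil markers ran from 8692 to 9695 CPM in WT under GM-CSF, from 7369 to 7411 CPM with IL-6 and from 4295 to 4568 CPM with EMT6 medium. In labelled-deficient cultures they ran from 4782 to 4969 CPM under GM-CSF, from 3572 to 3616 CPM with IL-6 and from 2665 to 3089 CPM with EMT6 medium. Single neutrophil markers did not all follow the sum. In WT, Mmp8 averaged 1314, 2453 and 2202 CPM with GM-CSF, IL-6 and EMT6 medium. Csf3r (216 and 385 CPM) and Cxcr2 (197 and 285 CPM) were also higher with IL-6 than with GM-CSF in WT, while the rest of the list was lower. Summed levels of 6 B cell markers were 85.7 to 90.6 CPM in WT under GM-CSF, 74.6 to 75.6 CPM with IL-6 and 289 to 297 CPM with EMT6 medium. In labelled-deficient cultures they were 61.7 to 65.8 CPM, 53.9 to 61.5 CPM and 221 to 231 CPM. Summed levels over all libraries ran from 75.0 to 122 CPM for 8 mast cell and basophil markers (Mcpt4 at 0 in the labelled-deficient GM-CSF group), and from 380 to 853 CPM for 7 erythroid and megakaryocyte markers. For 8 T and NK cell markers they were 9.33 to 14.0 CPM without EMT6 medium, and with it 18.6 to 24.4 CPM in WT and 38.7 to 44.5 CPM in labelled-deficient cultures. For 9 stromal and endothelial markers they were 59.5 to 63.9 CPM in WT and 60.9 to 64.9 CPM in labelled-deficient cultures under GM-CSF, 107 to 110 CPM and 101 to 110 CPM with IL-6, and 106 to 109 CPM and 138 to 173 CPM with EMT6 medium. For 7 epithelial markers they were 700 to 1013 CPM without EMT6 medium and 47.5 to 89.2 CPM with it, nearly all from Cdh1 without it. Krt8 was low but higher with it, at 0.34 and 1.17 CPM in WT under GM-CSF and with EMT6 medium, and at 0.63 and 3.16 CPM in labelled-deficient cultures. Epcam was at 9.38 and 9.95 CPM in WT and at 5.06 and 15.1 CPM in labelled-deficient cultures. No background was subtracted from these levels, and the part of reads in no annotated feature in them was not tested. Krt5 was at 0 in 3 of the groups without EMT6 medium. The part of these differences in the members' levels was not tested, and in bulk RNA fewer cells of a type and less RNA per cell cannot be told apart.

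Promoters of 3 members are shown because each holds the core cAMP response element TGACG more than 1 time, a site to which CREB and ATF factors are known to bind. The sequences are RefSeq's, build GRCm38.p6, written 5' to 3' on the strand of the gene, and capitals mark TGACG, its reverse complement CGTCA or the full element. The Fos stretch is chr12:85473640-85473889 on the plus strand, the 250 bases before the annotated start of the gene. The Nr4a1 stretch is chr15:101266596-101266845 on the plus strand, 250 bases before the RefSeq start and in no annotated exon. The Dusp1 stretch is chr17:26508520-26508722 on the minus strand and stops 47 bases short of the RefSeq start, where an exon of another transcript begins.
Fos: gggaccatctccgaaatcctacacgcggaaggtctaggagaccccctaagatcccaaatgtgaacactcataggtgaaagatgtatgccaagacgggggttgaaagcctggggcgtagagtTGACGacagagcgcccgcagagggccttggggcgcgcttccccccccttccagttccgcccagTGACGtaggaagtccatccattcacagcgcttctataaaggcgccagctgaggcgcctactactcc
Nr4a1: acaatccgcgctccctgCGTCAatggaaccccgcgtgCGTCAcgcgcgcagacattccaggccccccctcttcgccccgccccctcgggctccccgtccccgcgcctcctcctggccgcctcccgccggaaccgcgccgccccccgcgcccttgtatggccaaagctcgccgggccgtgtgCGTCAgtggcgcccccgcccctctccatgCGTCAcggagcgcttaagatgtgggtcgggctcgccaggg
Dusp1: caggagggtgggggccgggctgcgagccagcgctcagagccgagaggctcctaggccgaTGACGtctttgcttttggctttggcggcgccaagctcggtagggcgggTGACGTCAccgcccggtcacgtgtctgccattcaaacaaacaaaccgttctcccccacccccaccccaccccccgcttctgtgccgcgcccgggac
Of the 7 members whose promoters were searched, 6 held TGACG on either strand within 250 bases before the start, with 4 matches in Nr4a1, 3 in Dusp1, 2 in Fos and 1 each in Fosb, Junb and Atf3. Of all 32851 promoters listed for the mouse, 17.77% held it. Egr1, Egr3 and Ier2 had no entry. The full element TGACGTCA, which contains TGACG on both strands, occurred in Dusp1, 143 bases before the start, and in 1.546% of all promoters. The TATA box motif TATAAA began 33 bases before the start of Fos and occurred in 12.37% of all promoters. The AP-1 motif TGANTCA and the CArG box were in none of the 7 windows, against 6.749% and 1.467% of all promoters. Bases farther than 250 from the start were not searched, so the absence holds for the windows only. A match describes the letters of the window and is not evidence of binding.

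Gene positions are those of GENCODE M21 on mm10, all for protein-coding genes. Fos (chr12:85473890-85477273, plus strand) encodes the founding FOS subunit of AP-1, which cannot bind DNA without a JUN partner. Its level was 88.8, 79.7 and 72.6 CPM in the WT GM-CSF libraries, 127, 124 and 118 CPM with IL-6, and 68.1, 65.8 and 66.1 CPM with EMT6 medium. In labelled-deficient cultures it was 38.1, 35.8 and 37.6 CPM with GM-CSF, 42.8, 41.5 and 43.3 CPM with IL-6, and 113, 110 and 119 CPM with EMT6 medium. The highest group in WT was thus the IL-6 cultures and the highest in labelled-deficient marrow the EMT6 cultures, and these were the only neighbours in the order of the 6 groups whose libraries overlapped. The log2 fold change with IL-6 was 0.62 ± 0.06 (SE) in WT and 0.20 ± 0.06 in labelled-deficient marrow. With EMT6 medium it was -0.27 ± 0.06 in WT, which became 0.23 by library sizes alone and 0.00 when TMM used genes of mean CPM 5 or more, so its direction in WT was not fixed. In labelled-deficient marrow the change with EMT6 medium was 1.61 ± 0.06, and 1.35 to 2.23 under the other scalings. The difference between these changes, the interaction, was 1.88 ± 0.08 with EMT6 medium and -0.42 ± 0.08 with IL-6. Between genotypes, Fos was lower in labelled-deficient cultures by GM-CSF alone (-1.11 ± 0.06) and with IL-6 (-1.53 ± 0.06), and higher with EMT6 medium (0.77 ± 0.06).

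**Figure D1:**
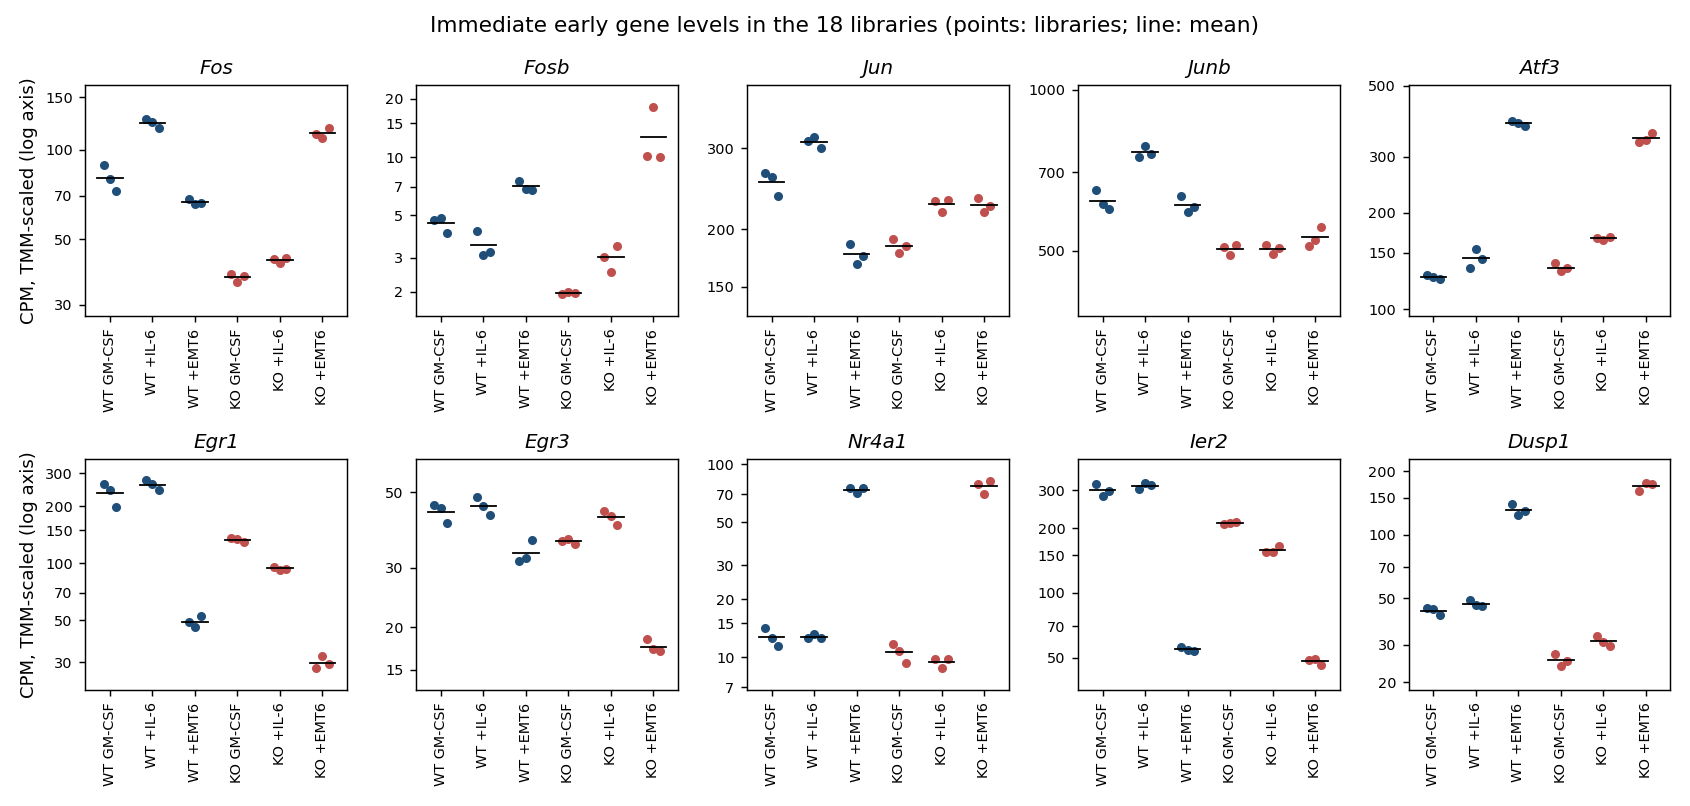
Levels of the 10 immediate early genes in each library, in TMM-scaled CPM on a log axis, with points for the 3 libraries of a group and a line at their mean; KO stands for the libraries labelled Cysltr1-/- (red) and WT is blue. Fos lies between 110 and 119 CPM in the KO EMT6 libraries against 35.8 to 38.1 CPM in the KO GM-CSF libraries, while Egr1 and Ier2 are lowest and Nr4a1 and Dusp1 highest in the EMT6 libraries of both genotypes.

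Fosb (chr7:19302696-19310051, minus strand), a relative of Fos with the same need for a JUN partner, had the fewest counts of the members. It was at 4.71, 4.85 and 4.06 CPM in WT with GM-CSF, 4.13, 3.11 and 3.24 CPM with IL-6, and 7.55, 6.84 and 6.74 CPM with EMT6 medium. Labelled-deficient cultures had 1.95, 1.99 and 1.98 CPM with GM-CSF, 3.04, 2.53 and 3.47 CPM with IL-6, and 10.1, 18.2 and 9.98 CPM with EMT6 medium. Replicate 2 of the last group stood apart, yet all 3 of its libraries were above every other library. The log2 fold change with EMT6 medium was 0.65 ± 0.17 in WT and 2.67 ± 0.18 in labelled-deficient marrow, and 2.13 in the latter without replicate 2. Fos also went from 1.61 to 1.42 in that fit, so part of the drop was shared by other members. In EMT6 medium Fosb was higher in labelled-deficient than in WT cultures by 0.83 ± 0.15, or 0.39 without that library. Under GM-CSF alone it was lower (-1.18 ± 0.20). Its counts summed to 125 to 570 per group, and the density of reads outside annotated features would account for 15.0% to 39.8% of them, so the level of this gene is less certain than that of the others.

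Jun (chr4:95049034-95052222, minus strand) encodes the JUN subunit that pairs with FOS in the classical AP-1 factor. It was at 265, 260 and 236 CPM in WT with GM-CSF, 312, 317 and 300 CPM with IL-6, and 186, 168 and 175 CPM with EMT6 medium. The labelled-deficient libraries had 190, 178 and 184 CPM with GM-CSF, 230, 218 and 232 CPM with IL-6, and 234, 218 and 224 CPM with EMT6 medium. The IL-6 libraries were above the GM-CSF libraries in both genotypes without overlap, by 0.29 ± 0.05 and 0.30 ± 0.05 on the log2 scale. With EMT6 medium the change was -0.52 ± 0.05 in WT, which shrank to -0.03 by library sizes alone. In labelled-deficient marrow it was 0.29 ± 0.05, but 0.03 with DESeq2 size factors and 0.04 to 0.10 when any 1 library of the 2 groups was left out. The value of every member was lower in each of these left-out fits than in the main fit. Atf3 was at 1.09 to 1.15 against 1.34, so the drop was not particular to Jun or to 1 library. The interaction with EMT6 medium, 0.82 ± 0.07, was 0.69 to 0.94 under the scalings. Jun shares 232 exon bases with the antisense gene Junos, which had 1066 counts over all libraries against 83567 for Jun. The strand setting of the counting is not given in the sources used here, so reads of overlapping genes on opposite strands may be mixed.

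Junb (chr8:84974484-84978718, minus strand), which encodes a JUN protein with weaker activation than JUN, had the highest level per kilobase of exon among the members in all 6 groups, from 219 to 332 CPM per kb. In WT it was at 649, 612 and 598 CPM with GM-CSF, 747, 785 and 757 CPM with IL-6, and 631, 591 and 602 CPM with EMT6 medium. In labelled-deficient cultures it was at 508, 490 and 513 CPM with GM-CSF, 511, 492 and 506 CPM with IL-6, and 510, 523 and 554 CPM with EMT6 medium. The WT IL-6 libraries were therefore above all others, at a log2 fold change of 0.30 ± 0.05, while the labelled-deficient groups overlapped one another. With EMT6 medium no direction can be given, since the change was -0.03 ± 0.05 in WT and 0.07 ± 0.05 in labelled-deficient marrow, 0.47 and 0.69 by library sizes alone, and -0.17 and -0.20 with DESeq2 size factors. The labelled-deficient level was lower by 0.30 ± 0.05 with GM-CSF and by 0.60 ± 0.05 with IL-6, and the -0.20 ± 0.05 in EMT6 medium became 0.04 by library sizes alone. Junb shares 173 exon bases with Prdx2 on the other strand, which had 33544 counts against 213804 for Junb.

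Atf3 (chr1:191170296-191218039, minus strand) encodes a bZIP factor that cells make under stress and that often represses its targets. It was at 128, 126 and 124 CPM in WT with GM-CSF, 135, 155 and 144 CPM with IL-6, and 386, 382 and 375 CPM with EMT6 medium. Labelled-deficient libraries had 139, 131 and 135 CPM with GM-CSF, 167, 165 and 169 CPM with IL-6, and 332, 338 and 356 CPM with EMT6 medium. The EMT6 libraries of both genotypes stood above all the rest, with log2 fold changes of 1.59 ± 0.05 in WT and 1.34 ± 0.05 in labelled-deficient marrow. Between genotypes the differences were small, at 0.10 ± 0.05 with GM-CSF and 0.21 ± 0.05 with IL-6, and the -0.16 ± 0.05 in EMT6 medium became 0.09 by library sizes alone. Per kilobase Atf3 was next to Junb in EMT6 medium, at 177 and 159 CPM per kb in WT and labelled-deficient cultures.

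Egr1 (chr18:34859823-34864984, plus strand), a zinc finger factor that is known to favour monocyte and macrophage development, had a highest group mean 8.74 times the lowest, or 5.23 times by library sizes alone. The range of Nr4a1 was 8.16 times, or 12.3 times by library sizes alone. Its levels in WT were 264, 245 and 199 CPM with GM-CSF, 275, 263 and 244 CPM with IL-6, and 48.9, 46.2 and 52.3 CPM with EMT6 medium. In labelled-deficient cultures they were 136, 135 and 129 CPM with GM-CSF, 95.8, 92.6 and 93.8 CPM with IL-6, and 27.9, 32.2 and 29.4 CPM with EMT6 medium. Every labelled-deficient library was below every WT library of the same culture. The log2 difference between genotypes was -0.82 ± 0.06 with GM-CSF, -1.47 ± 0.06 with IL-6 and -0.73 ± 0.08 in EMT6 medium. The log2 fold change with EMT6 medium was -2.26 ± 0.07 in WT and -2.17 ± 0.08 in labelled-deficient marrow, an interaction of 0.09 ± 0.10. Reads outside annotated features would account for 7.98% of its counts in the labelled-deficient EMT6 group. With IL-6 the change was 0.14 ± 0.06 in WT, where the libraries overlapped, and -0.50 ± 0.07 in labelled-deficient marrow, where they did not, an interaction of -0.65 ± 0.09.

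Egr3 (chr14:70077203-70082614, plus strand), a relative of Egr1 best known from lymphocytes and muscle spindles, had a narrower range, with the highest group mean 2.60 times the lowest. It was at 46.1, 45.1 and 40.6 CPM in WT with GM-CSF, 48.4, 45.7 and 42.8 CPM with IL-6, and 31.4, 32.1 and 36.1 CPM with EMT6 medium. Among labelled-deficient libraries Egr3 had 36.0, 36.5 and 35.2 CPM with GM-CSF, 44.0, 42.7 and 40.1 CPM with IL-6, and 18.4, 17.2 and 17.0 CPM with EMT6 medium. The last 3 libraries were the lowest of the 18. The log2 fold change with EMT6 medium was -1.03 ± 0.07 in labelled-deficient marrow, and its -0.40 ± 0.06 in WT became 0.10 by library sizes alone. Between genotypes the log2 difference was -0.28 ± 0.06 with GM-CSF and -0.92 ± 0.08 in EMT6 medium, and the -0.11 ± 0.06 with IL-6 became 0.04 by library sizes alone. Reads outside annotated features would account for 13.2% of Egr3 counts in the labelled-deficient EMT6 group and for 1.02% to 3.88% elsewhere. The per-length ratio of Egr1 to Egr3 was 5.26 ± 0.411 (SD, n = 3) in WT with GM-CSF and 1.45 ± 0.0626 with EMT6 medium. In labelled-deficient cultures it was 3.65 ± 0.0485 with GM-CSF and 1.67 ± 0.177 with EMT6 medium.

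Nr4a1 (chr15:101254269-101274795, plus strand) encodes the orphan nuclear receptor NUR77, which is known to be needed for patrolling monocytes. It was at 14.2, 12.6 and 11.4 CPM in WT with GM-CSF, 12.6, 13.2 and 12.6 CPM with IL-6, and 75.8, 71.1 and 75.0 CPM with EMT6 medium. The labelled-deficient libraries were at 11.7, 10.8 and 9.35 CPM with GM-CSF, 9.87, 8.85 and 9.76 CPM with IL-6, and 79.4, 70.6 and 82.3 CPM with EMT6 medium. The 6 EMT6 libraries overlapped each other between genotypes and lay far above the other 12. Their log2 fold changes against GM-CSF were 2.55 ± 0.07 in WT and 2.85 ± 0.08 in labelled-deficient marrow. The genotypes differed in this change by 0.31 ± 0.11, a value past the threshold used below in 1 of 12 fits with a library left out. The genotype difference was -0.24 ± 0.09 with GM-CSF, past that threshold in 3 of 6 such fits and in 1 of 8 other alternatives, and -0.43 ± 0.09 with IL-6. In EMT6 medium it was 0.07 ± 0.06, -0.04 with DESeq2 size factors, and past the threshold at 0.31 by library sizes alone, 0.16 with background subtracted and 0.15 when TMM used genes of mean CPM 5 or more.

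Ier2 (chr8:84661331-84662852, minus strand) encodes a small protein of little known biochemistry that serum induces quickly. It was at 323, 281 and 297 CPM in WT with GM-CSF, 304, 324 and 317 CPM with IL-6, and 56.2, 54.3 and 53.8 CPM with EMT6 medium. Labelled-deficient cultures had 210, 211 and 215 CPM with GM-CSF, 156, 155 and 165 CPM with IL-6, and 49.0, 49.1 and 46.1 CPM with EMT6 medium. Both EMT6 groups were far below the rest, with log2 fold changes of -2.46 ± 0.05 in WT and -2.14 ± 0.06 in labelled-deficient marrow. The labelled-deficient level was lower by 0.51 ± 0.05 with GM-CSF and by 0.99 ± 0.05 with IL-6, and the -0.19 ± 0.06 in EMT6 medium became 0.05 by library sizes alone. Per kilobase Ier2 had rank 2 among the members in the 4 groups without EMT6 medium, at 104 to 207 CPM per kb, and 5 or 6 with it, at 36.0 and 31.6 CPM per kb.

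Dusp1 (chr17:26505590-26562128, minus strand), the phosphatase that switches off p38 and JNK, was at 44.8, 44.4 and 41.5 CPM in WT with GM-CSF, 49.1, 46.2 and 45.7 CPM with IL-6, and 140, 124 and 130 CPM with EMT6 medium. The labelled-deficient level was 27.3, 23.9 and 25.3 CPM with GM-CSF, 33.2, 30.9 and 29.5 CPM with IL-6, and 160, 176 and 175 CPM with EMT6 medium. None of the neighbouring groups in its order overlapped. The labelled-deficient cultures were lowest without EMT6 medium and highest with it. The log2 fold change with EMT6 medium was 1.60 ± 0.06 in WT and 2.74 ± 0.06 in labelled-deficient marrow, an interaction of 1.14 ± 0.09 that was 1.02 to 1.26 under the scalings. The genotype difference was -0.77 ± 0.07 with GM-CSF, -0.59 ± 0.06 with IL-6 and 0.37 ± 0.05 in EMT6 medium. Dusp1 shares 11 exon bases with Ergic1 on the other strand, which had 29804 counts against 24801 for Dusp1.

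**Figure D2:**
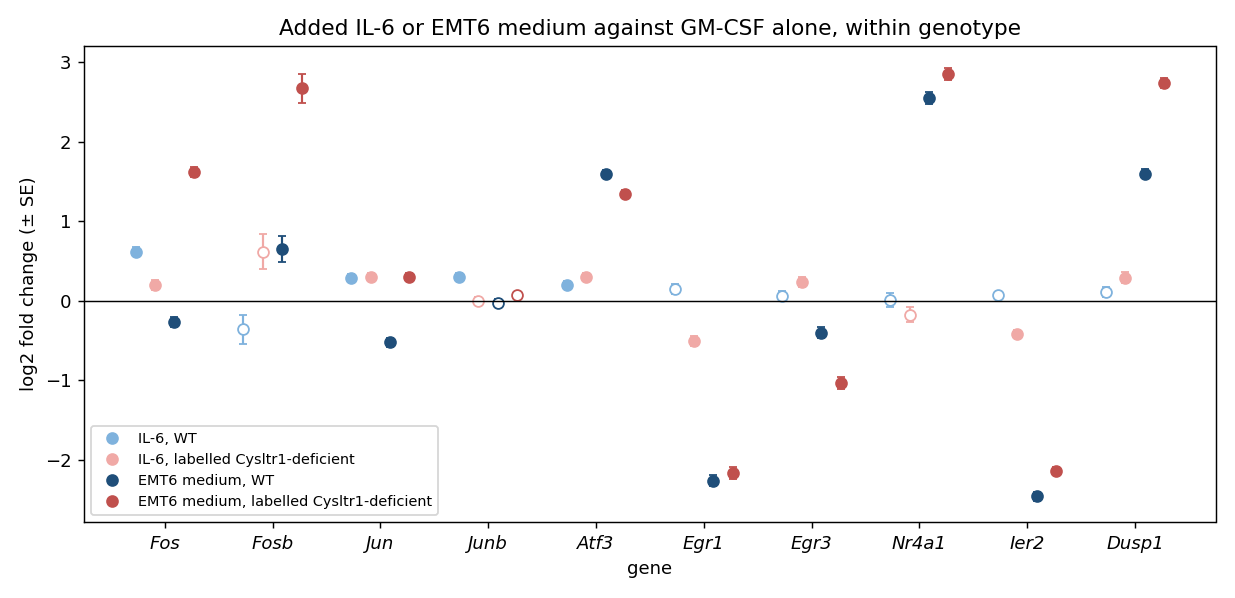
Log2 fold changes (± SE) of the 10 genes when IL-6 or EMT6 medium was added, each compared with GM-CSF cultures of its own genotype; filled points have an adjusted p under 0.05 over all genes (edgeR) and open points do not. The 4 changes of each gene are spread from -2.46 for Ier2 to 2.85 for Nr4a1, and the WT changes of Fos, Junb and Egr3 with EMT6 medium change sign by library sizes alone.

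Counted over the members, IL-6 in WT had 4 higher and 0 lower past an adjusted p under 0.05 (edgeR quasi-likelihood test, 28334 genes), where 10.4% of all genes tested were called higher and 11.3% lower. In labelled-deficient marrow 5 were higher and 2 lower with IL-6, beside 5.54% and 8.77% of all genes (4.36% and 11.2% with DESeq2 size factors). Of these, Fos was no longer past the threshold with DESeq2, with its size factors or in 5 of 6 fits with a library left out, while Fosb was past it under 6 of 8 alternatives. With EMT6 medium in WT 4 were higher and 5 lower, beside 46.8% and 34.5%. In labelled-deficient marrow 6 were higher and 3 lower with EMT6 medium, beside 54.3% and 32.9%. Most genes were thus called in the EMT6 comparisons, and the members' counts there say little. The median log2 fold change over the members was 0.13 and 0.21 with IL-6 in the 2 genotypes, against -0.03 and 0.02 over all genes, and -0.15 and 0.82 with EMT6 medium, against 0.49 and 0.83. For genes averaging 5 CPM or more over the 2 groups compared, the EMT6 medians were -0.58 and -0.59. Library sizes alone in place of TMM shifted all EMT6 changes by a median of 0.49 in WT and 0.62 in labelled-deficient marrow, and DESeq2 size factors by -0.14 and -0.27. The share of all genes called higher and lower with EMT6 medium then became 61.2% and 21.4% by library sizes and 43.2% and 37.4% by size factors in WT, and 67.8% and 19.6%, then 49.3% and 37.6%, in labelled-deficient marrow.

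**Figure D3:**
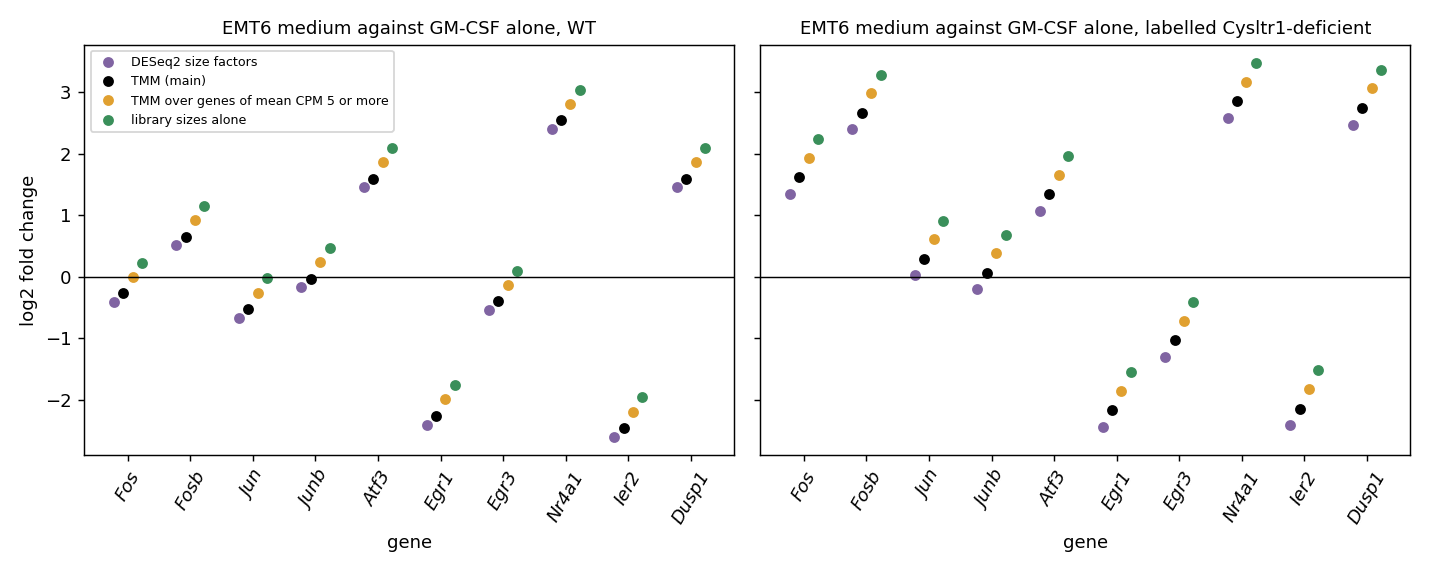
Log2 fold changes of the members with EMT6 medium against GM-CSF alone in WT (left) and labelled Cysltr1-deficient (right) cultures under 4 scalings of the same counts. Nr4a1, Dusp1, Atf3 and Fosb stay above 0 and Egr1 and Ier2 below 0 in both panels, while Fos, Junb and Egr3 cross 0 in WT and Junb crosses it in labelled-deficient cultures.

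Between genotypes under GM-CSF alone, 0 members were higher and 9 lower in labelled-deficient cultures, beside 10.1% and 17.2% of all genes. Atf3 was not past the threshold, but was higher and past it under 6 of 8 alternatives, and Nr4a1 was no longer past it under 7 of the 8. With IL-6, 1 was higher (Atf3) and 7 lower (all but Fosb and Egr3 of the rest), beside 12.1% and 18.4%. With EMT6 medium 4 were higher (Fos, Fosb, Jun and Dusp1) and 5 lower, beside 32.3% and 19.8%. By library sizes alone 5 were higher, with Nr4a1 added, and 2 lower, Egr1 and Egr3. The members' medians were -0.48, -0.52 and -0.04 in GM-CSF, IL-6 and EMT6 medium, against 0.04, 0.09 and 0.27 over all genes. For genes averaging 5 CPM or more over the 2 groups compared, the medians were -0.10, -0.12 and -0.12. In EMT6 medium the members' median was thus below that of all genes and above that of these more abundant genes. The 9 lower members under GM-CSF kept their sign by library sizes alone and with DESeq2 size factors, with Nr4a1 the smallest at -0.12 and -0.22. Library sizes alone shifted all genes' genotype differences by a median of 0.12, 0.14 and 0.24 in the 3 cultures, and DESeq2 size factors shifted those in EMT6 medium by -0.10. The shares of all genes called higher and lower were then 16.7% and 11.5% under GM-CSF and 22.1% and 10.4% with IL-6 by library sizes. In EMT6 medium they were 50.7% and 8.69% by library sizes and 26.0% and 24.9% by size factors.

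**Figure D4:**
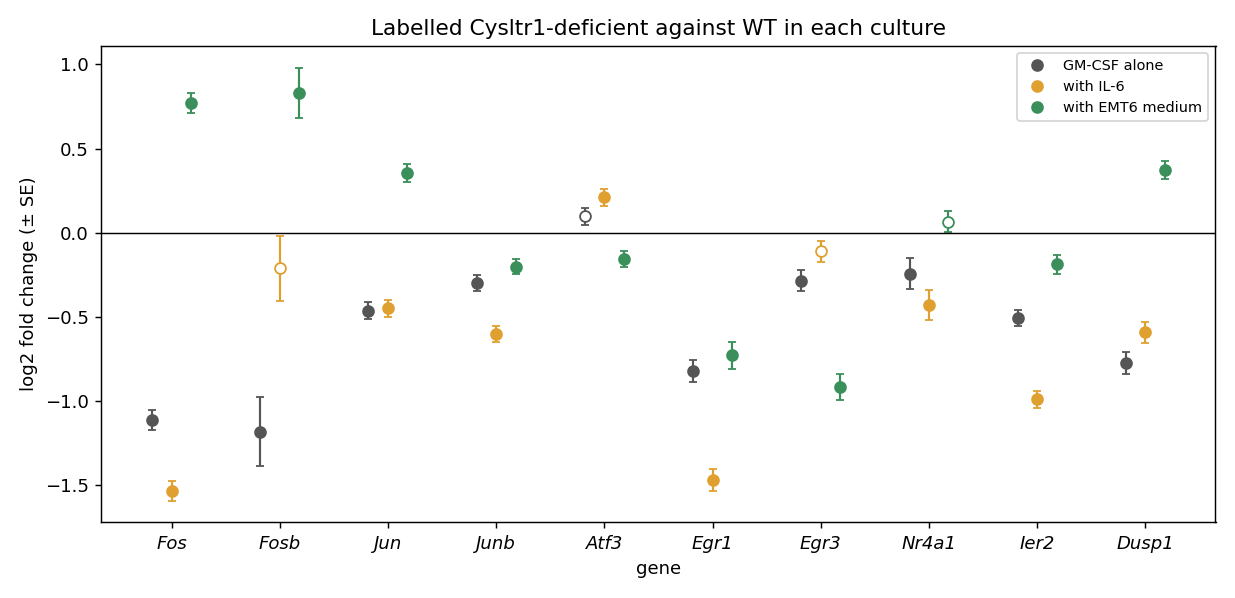
Log2 differences (± SE) of labelled Cysltr1-deficient against WT cultures for the 10 genes in each of the 3 cultures; filled points have an adjusted p under 0.05 over all genes (edgeR). Fos is at -1.11 under GM-CSF, -1.53 with IL-6 and 0.77 with EMT6 medium, and Egr1 is below 0 in all 3, while the EMT6 values of Junb, Atf3 and Ier2 move above 0 by library sizes alone.

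The response to IL-6 differed between genotypes for 1 member in the higher direction (Fosb) and 4 in the lower (Fos, Junb, Egr1 and Ier2), beside 2.92% and 4.46% of all genes. By library sizes alone these shares were 3.82% and 4.21%, and by DESeq2 size factors 2.03% and 6.18%. The response to EMT6 medium differed for 6 in the higher direction and 2 in the lower, beside 13.2% and 12.3%, or 19.4% and 8.65% by library sizes and 8.82% and 17.1% by size factors. The 6 were Fos, Fosb, Jun, Dusp1, Nr4a1 and Ier2. The values of the first 4, from 0.82 to 2.01, exceeded the median shift of 0.12 that library sizes alone gave and the -0.13 of size factors, whereas those of Nr4a1 (0.31 ± 0.11) and Ier2 (0.32 ± 0.08) were no longer past the threshold with size factors. Of the 2 lower, Atf3 was no longer past it by library sizes alone, where Junb was past it in the higher direction.

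Members differed in balance as well as level. The per-length ratio of Fos to Jun was 0.429 ± 0.0215 (SD, n = 3) in WT with GM-CSF, 0.539 ± 0.0118 with IL-6 and 0.514 ± 0.0161 with EMT6 medium. In labelled-deficient cultures it was 0.274 ± 0.00302 with GM-CSF, 0.254 ± 0.00295 with IL-6 and 0.685 ± 0.0319 with EMT6 medium. Such a ratio within a library does not depend on the scaling. The ratio of Fos to Egr1 was 0.652 ± 0.0384 and 2.59 ± 0.162 in WT with GM-CSF and with EMT6 medium, and 0.532 ± 0.0239 and 7.31 ± 0.702 in labelled-deficient cultures. Libraries of the EMT6 groups therefore held more Fos than Egr1 per length, and the other 12 held less.

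The closest pair of members over the 18 libraries was Jun and Junb, with a root mean square difference of 0.21 in centred log2(CPM + 1), followed by Egr1 and Ier2 at 0.24 and Dusp1 and Nr4a1 at 0.36. The farthest pair was Ier2 and Nr4a1 at 2.29. Of 8035 other genes compared by the same measure, those nearest to Fos were Plekha6, Rgs1 and Dedd2, at 0.28 to 0.35. Nearest to Egr1 were Tifab, Il17ra and the predicted gene Gm14548, at 0.17 to 0.23, and nearest to Ier2 were Peli2, Jaml and 9830107B12Rik, at 0.13 to 0.15. Nr4a1 was nearest to Nfkbiz, AC132253.5 and Dusp8, and Atf3 to Tulp3, Tgif1 and Csrnp1. Dusp1 was nearest to Ccdc126, Rragd and Gm43909, Egr3 to Plbd2, Chpf2 and Slc26a6, and Fosb to St14, Atp8b5 and Tbx6. Jun was nearest to Gse1, Gm49759 and Gm16754, and Junb to Sipa1l1, Adgrg3 and Mcam. The compared genes had group means ranging over at least 1 log2, whereas the ranges of Jun and Junb were smaller, at 1.76 and 1.52 times. Genes as flat as Jun and Junb were thus not compared. In some groups the members also differed together between replicates. In the WT GM-CSF group replicate 1 was the highest for 9 of the 10 members, as it was for 28.9% of 11175 expressed genes. Replicate 3 was the lowest there for 9, as it was for 49.3%. In the WT EMT6 group replicate 1 was the highest for 8 members, beside 43.9% of the genes. In the labelled-deficient EMT6 group replicates 1, 2 and 3 were the highest for 2, 4 and 4 members.

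Other immediate early genes, listed without the members, were fitted with edgeR's quasi-likelihood test and Benjamini-Hochberg adjustment over all genes. This list and those below were drawn up with results of these data known. Adjusted p-values therefore describe single genes, and the counts of rises and falls are not a test of a list. Of 31 listed, 29 had enough counts. With IL-6 in WT 11 rose and 6 fell: Ier5l rose by 0.89 ± 0.09 (log2, SE) and Klf4, a myeloid differentiation factor, by 0.57 ± 0.06, while Egr2 fell by 0.58 ± 0.05 (adjusted p = 5.65e-12). With EMT6 medium in WT 10 rose and 19 fell, or 11 and 15 by library sizes alone. Gadd45b, a stress sensor that binds a p38 and JNK activator, rose by 3.87 ± 0.06 (adjusted p = 4.50e-42), and Myc fell by 2.37 ± 0.06, Egr2 by 2.53 ± 0.06 and Klf2, which keeps leukocytes quiescent, by 1.71 ± 0.05. In labelled-deficient marrow 6 rose and 7 fell with IL-6, and 11 rose and 15 fell with EMT6 medium, or 17 and 12 by library sizes alone. In labelled-deficient against WT cultures under GM-CSF 7 rose and 14 fell, or 8 and 9 by library sizes alone. Zfp36, whose protein destabilises transcripts with AU-rich elements, fell by 1.12 ± 0.06 (adjusted p = 6.41e-21), Klf2 by 0.91 ± 0.05, Btg2 by 0.72 ± 0.05 and Ier3 by 0.71 ± 0.05. With IL-6 2 rose and 14 fell between genotypes, or 9 and 10 by library sizes, with Zfp36 falling by 1.12 ± 0.06, Klf2 by 0.93 ± 0.05, Btg2 by 0.67 ± 0.05 and Ier3 by 0.65 ± 0.05. In EMT6 medium 8 rose and 10 fell, or 18 and 4 by library sizes, with Sgk1 falling by 0.76 ± 0.05 (adjusted p = 8.78e-18) and Klf6 rising by 0.38 ± 0.05.

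The lists overlap, with 92 distinct genes tested. Fosl1, Fosl2, Jund, Maff, Egr2, Nr4a2, Nr4a3 and Srf are in the immediate early list above and in a list below. Among 12 AP-1 relatives, 6 rose and 2 fell with IL-6 in WT, where Fosl2 rose by 0.37 ± 0.06 and Jund fell by 0.38 ± 0.05. With EMT6 medium 2 rose and 9 fell, or 4 and 5 by library sizes alone: Jdp2, a repressor that pairs with JUN, fell by 1.73 ± 0.06 and Fosl2 by 1.63 ± 0.06. In labelled-deficient marrow 0 rose and 2 fell with IL-6, and 2 rose and 8 fell with EMT6 medium, or 8 and 4 by library sizes. Between genotypes 4 rose and 3 fell under GM-CSF and 1 rose and 6 fell with IL-6, or 6 and 2, and 3 and 4, by library sizes. Batf3, a partner of JUN proteins in dendritic cells, rose in labelled-deficient cultures by 0.92 ± 0.08 under GM-CSF (adjusted p = 7.65e-14), 0.76 ± 0.08 with IL-6 and 0.54 ± 0.11 in EMT6 medium, where 2 of the 12 rose and 3 fell, or 8 and 1 by library sizes. Fosl1, which encodes a FOS protein without an activation domain, fell by 0.63 ± 0.14 under GM-CSF and 0.89 ± 0.12 with IL-6. Of 6 EGR and NR4A relatives 5 were measured. With IL-6 in WT 0 rose and 2 fell, and with EMT6 medium all 5 fell, or 3 by library sizes alone. Nr4a3 fell by 1.99 ± 0.07 in the latter, while Nr4a1 was higher. In labelled-deficient marrow 0 rose and 2 fell with IL-6, and 1 rose and 4 fell with EMT6 medium. Between genotypes 1 of these 5 fell under GM-CSF, 2 with IL-6 and 3 in EMT6 medium, where Nr4a2 rose by 0.70 ± 0.12. By library sizes alone 0, 1 and 0 fell.

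MAP kinase phosphatases, the class of Dusp1, and RAS-ERK feedback inhibitors, 16 genes in all, gave 8 rises and 2 falls with IL-6 in WT. Spred3 rose by 0.84 ± 0.08 and Dusp4 by 0.59 ± 0.07. With EMT6 medium 7 rose and 7 fell, or 9 and 5 by library sizes: Dusp4, an ERK phosphatase, rose by 4.55 ± 0.06 (adjusted p = 2.40e-42) while Dusp6, which ERK signalling itself induces, fell by 1.74 ± 0.05. Within labelled-deficient marrow 6 rose and 3 fell with IL-6, and 7 rose and 9 fell with EMT6 medium, or 7 and 6 by library sizes. In labelled-deficient against WT cultures 7 rose and 3 fell under GM-CSF, or 9 and 2 by library sizes. Dusp2 fell by 1.18 ± 0.10, as Dusp1 was lower there, and Dusp4 rose by 0.91 ± 0.07. With IL-6 5 rose and 5 fell, or 7 and 3 by library sizes, and Dusp6 fell by 0.52 ± 0.05. In EMT6 medium 4 rose and 9 fell, or 6 and 3 by library sizes, and Dusp4 fell by 0.77 ± 0.05.

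Of 24 genes of the MAP kinase cascade itself, 4 rose and 5 fell with IL-6 in WT, with Map2k1 rising by 0.32 ± 0.05. With EMT6 medium 5 rose and 17 fell, or 9 and 14 by library sizes alone, and Map2k4, the kinase above JNK, fell by 2.18 ± 0.06 (adjusted p = 9.25e-33). In labelled-deficient marrow 1 rose and 8 fell with IL-6, or 3 and 8 by library sizes, and 6 rose and 16 fell with EMT6 medium, or 9 and 12. Between genotypes 1 rose and 14 fell under GM-CSF, or 6 and 8 by library sizes, with Mapk13 falling by 0.85 ± 0.06. With IL-6 1 rose and 15 fell, or 1 and 11, and in EMT6 medium 3 rose and 15 fell, or 6 and 7 (0 and 19 with DESeq2 size factors). Of 14 SRF, ternary complex, MRTF and CREB genes, the factors that sit on immediate early promoters, 6 rose and 1 fell with IL-6 in WT, where Atf1 rose by 0.36 ± 0.05. With EMT6 medium 1 rose and 12 fell, or 4 and 8 by library sizes, and Mrtfa fell by 1.59 ± 0.07. In labelled-deficient marrow 1 rose and 1 fell with IL-6, and 1 rose and 12 fell with EMT6 medium, or 4 and 7 by library sizes. Between genotypes 1 rose and 5 fell under GM-CSF, 1 and 8 with IL-6, and 3 and 4 in EMT6 medium, where by library sizes 3 rose and 1 fell, 3 and 3, and 8 and 1. DESeq2 size factors gave 1 and 9 in EMT6 medium. Mrtfa fell by 0.52 ± 0.06 under GM-CSF and 0.42 ± 0.06 with IL-6. All of these lists were drawn up with results of these data known, and their calls stand beside the shares of all genes given above. Npas4 and Egr4 had too few counts to be tested.

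Transcript structure was not used in the choice of members. The span of the principal transcript ran from 1522 to 20527 bases with a median of 4273, against a median of 20608 over 17264 protein-coding genes tested. Nr4a1, with 8 exons, had the longest span and Atf3 the next at 13045 bases, and the other 8 were at 7356 bases or less. Jun, Junb and Ier2 have 1 exon each, and the median over all those genes was 8. The pentamer ATTTA, the core of AU-rich elements known to shorten transcript life, occurred at a median of 2.95 per kilobase of 3' UTR in the members, against 1.28 over 16600 genes. A total of 8 of 10 were above that median, led by Dusp1 at 5.80 and Nr4a1 at 5.52 per kilobase, while Fosb was at 0.47 and Ier2 at 0.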

How the data were processed

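RNA of 18 cultures in 6 groups of 3 was sequenced. The authors deposited whole-number counts of reads per gene, for which the submitters' processing notes name the aligner HISAT2 (2.1.0), the counter HTSeq (0.13.5) and the genome mm10; annotation release, strand setting and read filters are not given in the sources used here. Versioned gene IDs were matched to GENCODE M21 names. Entries named by number (26248, with 0.0399% to 0.446% of feature counts), 97 spike-in entries and 5 summary lines were left out, and the deposited normalized table was not used.

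Counts were fitted over all 18 libraries and 28334 genes that passed edgeR's expression filter, with R 4.3.3, edgeR 4.0.16 (TMM scaling, quasi-likelihood test) and limma 3.58.1, and p-values were adjusted by Benjamini-Hochberg with a threshold of 0.05. All 10 members passed the filter. The fit was tested on simulated data. The members and gene lists were chosen with earlier results of these data known. Genes named from a pathway list were the 4 called genes of smallest p per list and comparison with a mean of at least 5 CPM in the higher group. Likeness to a member was the root mean square difference of log2(CPM + 1), centred per gene, among genes whose group means ranged over at least 1 log2.

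Background counts were the exon length of a gene times the density of reads in no annotated feature. Alternatives were DESeq2 1.42.0 and its size factors, library sizes alone, other filters, background subtraction, a fit of only the groups compared, a replicate block and each library left out. Deviations of libraries with the same replicate number correlated above 0.1 in 6 of 45 pairs of libraries from different groups (r from -0.338 to 0.256), so the numbers were not taken to pair samples.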

Additional observations from a re-analysis of the deposited data

Results flagged for a closer look

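The genes below were picked out because their response to a culture differed between genotypes by the interaction term of the edgeR quasi-likelihood fit, given as a log2 value, labelled-deficient minus WT. For the members these values are descriptions, since the members were selected on the same groups. Pathway genes were named for small p-values in WT, from libraries that also enter the interaction, so their values are descriptions too. Such a choice favours differences opposite in sign to the WT change.

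For IL-6 the member values were -0.42 for Fos, 0.97 for Fosb, -0.30 for Junb, -0.65 for Egr1 and -0.48 for Ier2. Fosb was past the threshold in 6 of 12 fits with a library left out, and the other 4 in all 12. Of 21 pathway genes named with IL-6 in WT, 7 were past the threshold, beside 2.92% of all genes higher and 4.46% lower. The IL-6 response of Klf4, a myeloid differentiation factor, was 0.57 in WT and -0.04 in labelled-deficient marrow, a difference of -0.61. Spred3, an inhibitor of RAS-ERK signalling, differed by -0.42, Atf1, a CREB relative, by -0.31, and Fosl2 by -0.28. Dusp6 differed by -0.27, Map2k1 by -0.21 and Rps6ka5 by 0.32.

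For EMT6 medium the member values were 1.88 for Fos, 2.01 for Fosb, 0.82 for Jun and 1.14 for Dusp1. They were -0.63 for Egr3, -0.25 for Atf3, 0.32 for Ier2 and 0.31 for Nr4a1. Fosb was at 1.60 without replicate 2 of the labelled-deficient EMT6 group. Ier2 was past the threshold in 8 of 12 fits with a library left out and Nr4a1 in 1 of 12, and Atf3 was not past it by library sizes alone.

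Of 23 pathway genes named with EMT6 medium in WT, 12 were past the threshold, beside 13.2% of all genes higher and 12.3% lower. Dusp4, an ERK phosphatase, rose by 4.55 in WT and by 2.87 in labelled-deficient marrow, a difference of -1.68 and opposite in sign to that of Dusp1. Spred1 differed by -0.75, Rps6ka3 by -0.51, Egr2 by -0.40 and Batf3 by -0.37. Klf2 differed by 0.69, Mrtfa by 0.44, Gadd45b by 0.30 and Jund by 0.29. The smallest differences were -0.30 for Dusp3, -0.24 for Myc and -0.22 for Nab1. The part of the differing share of reads in no annotated feature, and of the differing summed neutrophil marker levels, in these values was not tested.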

How the results depend on the processing

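Of 90 log2 values of a member in a comparison, 76 kept their direction and their side of the threshold by library sizes alone, 80 with genes of mean CPM 5 or more, 80 with background subtracted, 81 with DESeq2, 82 without a low-count filter, 83 with DESeq2 size factors and 87 in fits of only the groups compared. With a library left out it was 612 of 660. With EMT6 medium in WT, Fos turned to 0.23 by library sizes alone and to 0.0030 with genes of mean CPM 5 or more, Junb to 0.47, 0.24 and (background subtracted) 0.24, and Egr3 to 0.10 by library sizes alone. With EMT6 medium in labelled-deficient marrow, Junb turned to -0.20 with DESeq2 size factors, -0.20 with DESeq2 and -0.20 without a low-count filter, and lay from -0.18 to -0.12 when a library was left out. Jun there, at 0.29, was past the threshold in 0 of 6 such fits. Every member's value there was lower in each such fit than in the main fit, with Dusp1 at 2.46 to 2.57 against 2.74. The cause of this common shift was not tested. Between genotypes in EMT6 medium, library sizes alone turned Junb to 0.040, Atf3 to 0.086 and Ier2 to 0.054. Each scaling shifts all genes of a comparison together, by the medians given in the results. The fit with a replicate block kept 89 of the 90 and brought Fosb with IL-6 in labelled-deficient marrow past the threshold, for 8 members called there in place of 7. Pathway genes called for the interaction of genotype and IL-6 numbered 15, but 25 without a low-count filter, 26 with DESeq2, and 7 (without labelled-deficient GM-CSF replicate 2) to 16 when a library was left out; the cause was not tested. Depth limits Fosb most, with 125 counts over the labelled-deficient GM-CSF group.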
